A study of Mus musculus with 24 samples.

Results

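The 10 genes described here encode the enzymes that attach and remove the ubiquitin-like protein ISG15, the ADP-ribosyltransferases PARP9 and PARP14 with the PARP9 partner DTX3L, and the giant ligase RNF213. They were found by symbol among the 31062 features counted, and all 10 of 10 were matched and passed the filter on low counts. Polyadenylated RNA was sequenced from ID8 p53-/- cells, mouse ovarian cancer cells that lack p53, in 24 libraries. These fall into 8 groups of 3 that the labels number as biological replicates, and the tests read the spread among them. An Ifngr1-KO line, whose edited gene encodes the receptor chain that binds interferon-gamma (IFN-gamma), was set beside a control line labelled sgNTC. Each line grew adherent on regular plates or detached on ultra-low attachment (ULA) plates for 48 hours, of which the last 24 were with 100 ng/ml IFN-gamma or with PBS alone. Both lines carry the p53-/- background, and each genotype is represented by 1 line, so the edit and any other difference between the lines cannot be told apart. Dead cells were removed from ULA wells only, so detachment and that step cannot be told apart either.

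ISG15 is a small protein that interferon induces and that cells couple to other proteins much as they couple ubiquitin. The activating enzyme UBA7 hands it to the conjugating enzyme UBE2L6, and ligases, of which HERC6 is the main one in mice and TRIM25 another, place it on targets. USP18 takes it off again and, apart from that, dampens signalling at the type I interferon receptor. PARP9 and DTX3L form a complex that joins ADP-ribosylation with ubiquitin ligation, PARP14 adds single ADP-ribose units, and RNF213 is a ubiquitin ligase that coats bacteria and lipid-rich surfaces. Interferon acts on such genes in part through interferon regulatory factors.

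Interferon regulatory factors bind repeats of GAAA, and the gamma-activated site is a palindrome, so the 250 bases before the RefSeq start (GRCm38.p6) were searched on both strands. A promoter was found for 7 of the 10 genes, and none for Usp18, Parp9 and Parp14. The letters searched were AANNGAAA (interferon regulatory factor core), GAAANNGAAA (interferon-stimulated response element) and TTCNNNGAA (the gamma-activated site), and a response element always holds a core match. Of 32851 promoters of the same length, 21.3% held the core, 2.98% the response element and 7.02% the palindrome. Only Isg15 among the 7 held a response element, in 3 overlapping copies from 78 to 57 bases before the start, and it held 4 core matches. Uba7 held 1 core match on the opposite strand, TTTCACTT, from 27 to 20 bases before the start. Ube2l6, Herc6, Trim25, Dtx3l and Rnf213 held none of the letters in this window. The promoters of Isg15 (minus strand, chr4:156200819-156201068) and Ube2l6 (plus strand, chr2:84798578-84798827) are shown 5′ to 3′ because Isg15 carries the repeats, while Ube2l6, which rose with IFN-gamma in both cultures, carries none. Capitals mark the matches.
Isg15: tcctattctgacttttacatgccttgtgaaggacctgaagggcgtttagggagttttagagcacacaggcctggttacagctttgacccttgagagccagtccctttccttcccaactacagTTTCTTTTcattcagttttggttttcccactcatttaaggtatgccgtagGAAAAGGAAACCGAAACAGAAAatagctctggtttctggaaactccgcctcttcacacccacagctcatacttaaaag
Ube2l6: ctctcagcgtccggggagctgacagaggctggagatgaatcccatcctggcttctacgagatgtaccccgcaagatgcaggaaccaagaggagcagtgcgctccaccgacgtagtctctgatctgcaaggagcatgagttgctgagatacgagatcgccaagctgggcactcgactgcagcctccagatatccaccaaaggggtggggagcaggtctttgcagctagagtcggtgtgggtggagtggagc

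Totals ran from 33494774 to 63154942 counts per library. In counts per 1000000 (CPM), Ifngr1 ranged from 31.7 to 48.1 in sgNTC and from 13.3 to 17 in Ifngr1-KO cells, 12 libraries each. Among markers of ovarian surface epithelium and mesothelium, Krt8, Krt18, Krt19, Wt1 and Msln were high (125 to 2127 CPM). Epcam was at 0, and Krt7, Cdh1 and Pax8 reached at most 1.02 CPM. Upk3b ranged from 0.105 to 8.6 CPM and Muc16 from 0 to 34.4 CPM. The leukocyte markers Ptprc, Adgre1, Csf1r, Lyz2 and Itgam reached at most 0.611 CPM, with Cd68 at 2 to 23.4 CPM. The Ifngr1-KO adherent PBS replicate 3 library and the Ifngr1-KO ULA IFN-gamma replicate 2 library lay furthest from their groups, at a chi-square per gene of 20.9 to 21.2 and 21.9 to 27.6 from the other libraries, which stood at 7.75 and 7.94 from each other.

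**Figure D1:**
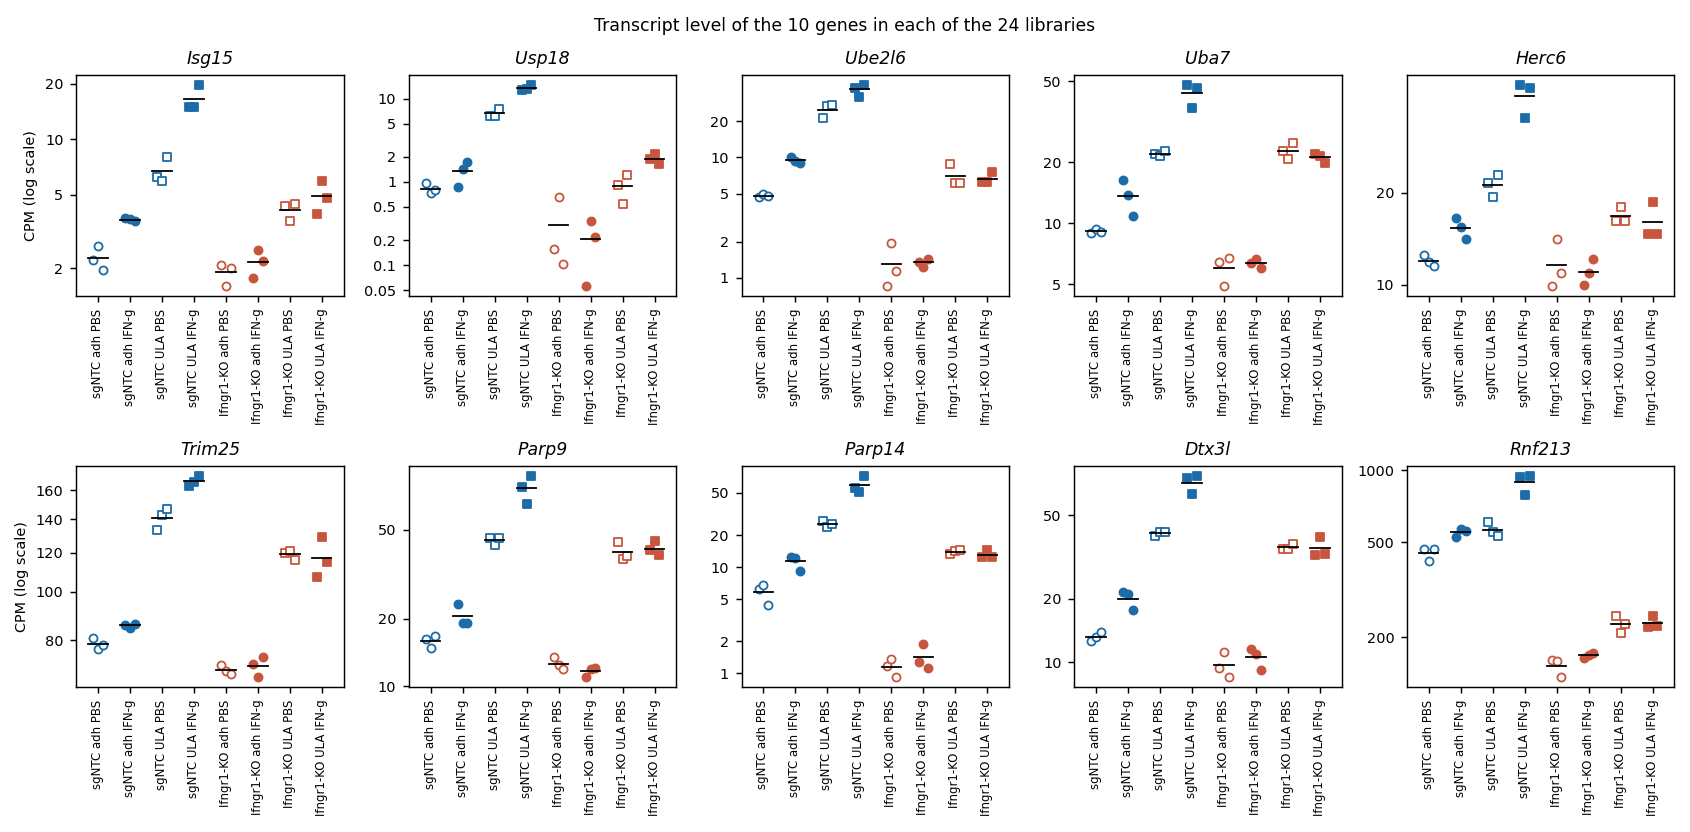
Level of each gene in every library, in CPM on a log axis, by group (adh is adherent, IFN-g is IFN-gamma). Blue is sgNTC and red Ifngr1-KO, circles are adherent and squares ULA, open symbols are PBS and filled ones IFN-gamma, and the bar is the mean of 3 libraries. The sgNTC ULA IFN-gamma group has the highest mean for all 10 genes.

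In sgNTC cells IFN-gamma raised genes of the ISG15 pathway and of the PARP group in both cultures, and Rnf213 in ULA culture. In adherent cells Ube2l6, Uba7, Parp14 and Dtx3l rose, 4 of 10, where 0.294% of the 14622 genes tested rose. In ULA cells 9 of 10 rose, every one except Usp18, where 1.31% of all genes rose. The median log2 fold change of the 10 genes was 0.59 in adherent and 0.88 in ULA cells, against 0.00 over all genes in both. In Ifngr1-KO cells 0 of the 10 were called in either culture by edgeR or DESeq2, with 0 and 1 at an unadjusted p under 0.05. A call means an adjusted p under 0.05 in the quasi-likelihood test of edgeR, adjusted by Benjamini-Hochberg over all genes tested, and log2 fold changes carry their standard error. In such bulk samples more RNA per cell and more cells with that RNA cannot be told apart.

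The modifier itself, Isg15 (ENSMUSG00000035692, GRCm38 chromosome 4, 156199424 to 156200818, minus strand), stood at 2.22, 2.65 and 1.96 CPM in the adherent sgNTC PBS libraries and at 3.73, 3.68 and 3.61 CPM with IFN-gamma. In ULA culture it stood at 6.22, 5.98 and 8 CPM with PBS and at 14.9, 15 and 19.8 CPM with IFN-gamma. The treated and untreated libraries did not overlap in either culture, and every ULA library of the line lay above every adherent one. The log2 fold change was 0.69 ± 0.19 in adherent cells, which missed the threshold (adjusted p = 0.149, and 0.0381 without a filter on low counts), and 1.30 ± 0.16 in ULA cells (adjusted p = 1.84e-06). In Ifngr1-KO cells Isg15 stood at 1.61 to 2.09 CPM with PBS and 1.78 to 2.53 CPM with IFN-gamma in adherent culture, and at 3.63 to 4.46 and 3.94 to 5.98 CPM in ULA culture. These groups overlapped within each culture, with log2 fold changes of 0.20 ± 0.20 and 0.24 ± 0.18.

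Uba7, the activating enzyme that starts ISG15 conjugation (ENSMUSG00000032596, chromosome 9, 107975505 to 107984060, plus strand), stood at 8.96, 9.37 and 9.11 CPM in adherent sgNTC PBS cells and at 16.3, 13.8 and 10.8 CPM with IFN-gamma. Its IFN-gamma libraries were spread widely but all lay above the PBS libraries. The rise of 0.58 ± 0.12 on the log2 scale passed (adjusted p = 0.0164), but it was lost without any 1 of 5 of the 6 libraries, with adjusted p from 0.0567 without PBS replicate 2 to 0.228 without IFN-gamma replicate 1. Without the others it was 0.0679 (IFN-gamma replicate 2), 0.14 (PBS replicate 1) and 0.0904 (PBS replicate 3). In ULA cells Uba7 went from 22, 21.4 and 22.7 CPM to 48.1, 36.9 and 46.4 CPM, a rise of 0.99 ± 0.11 (adjusted p = 3.84e-07) with no overlap. In Ifngr1-KO ULA cells it stood at 22.6, 20.7 and 24.8 CPM with PBS and 22, 21.5 and 19.9 CPM with IFN-gamma. Those groups overlapped, and the difference of -0.10 ± 0.11 did not pass (adjusted p = 0.89).

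Ube2l6, the conjugating enzyme (ENSMUSG00000027078, chromosome 2, 84798828 to 84810335, plus strand), had, with Parp14, the highest fold change of the 10 in adherent sgNTC cells. It stood at 4.66, 5.01 and 4.78 CPM with PBS and at 10, 9.38 and 9.02 CPM with IFN-gamma (0.98 ± 0.16, adjusted p = 0.000765). In ULA cells it started far higher, at 21.2, 26.5 and 27 CPM, and reached 37.9, 31.8 and 40.1 CPM. Libraries did not overlap in either culture. The ULA rise was 0.56 ± 0.14 (adjusted p = 0.0247), and its call was lost without IFN-gamma replicate 1 (adjusted p = 0.0861), IFN-gamma replicate 3 (0.132), PBS replicate 1 (0.152) or PBS replicate 2 (0.0813) of that culture.

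Of the ligases, Herc6 (ENSMUSG00000029798, chromosome 6, 57581000 to 57664632, plus strand) stood at 12.5, 11.9 and 11.5 CPM in adherent sgNTC PBS cells and 16.5, 15.4 and 14.1 CPM with IFN-gamma. Its groups did not overlap, but 0.36 ± 0.12 did not pass (adjusted p = 0.397). In ULA cells it rose from 21.5, 19.3 and 22.8 CPM to 45.2, 35.1 and 44.1 CPM (0.97 ± 0.11, adjusted p = 4.7e-07). Trim25 (ENSMUSG00000000275, chromosome 11, 88999376 to 89020293, plus strand), which also ubiquitinates the RNA sensor RIG-I, moved least of the 10. It went from 80.9, 76.8 and 78.1 CPM to 86, 84.7 and 86.3 CPM in adherent cells (0.12 ± 0.06, adjusted p = 0.648). In ULA cells it rose from 133, 143 and 147 CPM to 163, 166 and 171 CPM (0.24 ± 0.06, adjusted p = 0.0115). This call was lost without IFN-gamma replicate 2 (adjusted p = 0.0692), IFN-gamma replicate 3 (0.0603), PBS replicate 1 (0.102) or PBS replicate 2 (0.0706).

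Usp18, the enzyme that removes ISG15 (ENSMUSG00000030107, chromosome 6, 121245906 to 121270917, plus strand), had the lowest mean per exon length of the 10 in adherent cells and the widest standard errors. An opposite-strand gene shares 124 of its exon bases, but held at most 4 counts in any library. Adherent sgNTC libraries held 0.969, 0.732 and 0.797 CPM with PBS and 0.864, 1.45 and 1.74 CPM with IFN-gamma, from 26 to 58 counts each, and the groups overlapped. In ULA sgNTC cells it stood at 6.29, 6.28 and 7.57 CPM with PBS and at 12.7, 13.1 and 14.9 CPM with IFN-gamma. These did not overlap, and the log2 fold change of 1.02 ± 0.28 just missed the threshold (adjusted p = 0.0542). It passed with library totals as scale (0.0435), without a filter on low counts (8.4e-05), with counts halved (0.00117), with the compared groups alone (4.02e-05) and by DESeq2 (0.0357).

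Usp18 was also the only gene of the 10 with a log2 fold change of more than 0.5 in Ifngr1-KO ULA cells. It stood at 0.913, 0.536 and 1.22 CPM with PBS and at 1.89, 2.15 and 1.63 CPM with IFN-gamma, without overlap. The log2 fold change of 1.08 ± 0.36 (95% interval 0.34 to 1.81) did not pass (adjusted p = 0.488) but passed without a filter on low counts (0.024). That setting called 33 genes in this comparison, against 0 with the filter. No other setting, DESeq2 included, and no fit without 1 library called Usp18. In adherent Ifngr1-KO cells 3 to 29 counts were found per library and the change was -0.63 ± 0.56, with the sign set by PBS replicate 2, since it was 0.63 without that library.

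The PARP genes lie together on chromosome 16, where Parp9 (ENSMUSG00000022906, 35938470 to 35972605, plus strand) and Dtx3l (ENSMUSG00000049502, 35926511 to 35939151, minus strand) overlap head to head. They share 458 exon bases on opposite strands, 9.4% of those of Parp9 and 8.0% of those of Dtx3l, and counting used no strand. A read that overlapped both was by default assigned to neither, so the counts of both come mostly from their other bases. Parp14 (ENSMUSG00000034422, 35832874 to 35871544, minus strand) lies next to them and overlaps neither.

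Parp14 adds single ADP-ribose units, and its level differed widely between groups. Adherent sgNTC cells held 6.17, 6.81 and 4.39 CPM with PBS and 12.6, 12.3 and 9.23 CPM with IFN-gamma (0.97 ± 0.16, adjusted p = 0.000863). ULA sgNTC cells held 27.2, 23.7 and 25.3 CPM with PBS and 55.3, 51.5 and 72.4 CPM with IFN-gamma (1.23 ± 0.13, adjusted p = 4.7e-07). All 4 groups were separate and in that order. In Ifngr1-KO cells it stood at 1.17, 1.36 and 0.924 CPM with PBS and 1.28, 1.88 and 1.13 CPM with IFN-gamma in adherent culture. In ULA culture those cells held 13.3, 14.1 and 14.5 CPM and 12.5, 14.4 and 12.5 CPM. The changes with IFN-gamma were 0.31 ± 0.24 and -0.09 ± 0.14, and neither passed (adjusted p = 0.767 and 0.934).

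Parp9, which binds ADP-ribose through its macrodomains, stood at 16.2, 14.9 and 16.7 CPM in adherent sgNTC PBS cells and at 23.4, 19.1 and 19.2 CPM with IFN-gamma. The difference, 0.37 ± 0.10, did not pass (adjusted p = 0.114, and 0.00941 without a filter), although no library overlapped. Dtx3l, its ligase partner, rose there from 12.7, 13.2 and 13.9 CPM to 21.5, 21.1 and 17.7 CPM (0.61 ± 0.10, adjusted p = 0.000987). In ULA cells both rose, Parp9 from 46, 42.7 and 46.2 to 77.5, 65.5 and 87.1 CPM (0.77 ± 0.09, adjusted p = 4.59e-07). Dtx3l rose in that culture from 40, 41.6 and 41.8 to 74.7, 62.7 and 76.8 CPM (0.80 ± 0.09, adjusted p = 4.7e-07). In Ifngr1-KO cells the 4 log2 fold changes of this pair lay between -0.11 and 0.12.

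Rnf213, the giant ligase (ENSMUSG00000070327, chromosome 11, 119393100 to 119487418, plus strand), has 16888 exon bases in 68 blocks and, per exon length, the highest level of the 10 in sgNTC cells. Adherent sgNTC libraries held 466, 417 and 467 CPM with PBS and 527, 566 and 558 CPM with IFN-gamma. The libraries did not overlap, and 0.29 ± 0.07 missed the threshold (adjusted p = 0.0906). It passed without a filter on low counts (6.5e-05), with only the compared groups (0.00363) and by DESeq2 (0.0236). In ULA sgNTC cells it rose from 606, 552 and 529 CPM to 937, 788 and 948 CPM (0.66 ± 0.07, adjusted p = 4.7e-07). In Ifngr1-KO cells all 12 libraries lay below every sgNTC library, at 136 to 171 CPM in adherent and 208 to 246 CPM in ULA culture.

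Counted by separation of the libraries rather than by the test, 9 of 10 genes had all 3 IFN-gamma libraries above all 3 PBS libraries in adherent sgNTC cells, where 6.72% of all genes did, and the exception was Usp18. In ULA sgNTC cells it was 10 of 10, against 10.2% of all genes. In Ifngr1-KO cells 1 of 10 was separated upward in adherent culture (Rnf213, 0.14 ± 0.07, adjusted p = 0.62) and 1 of 10 in ULA culture (Usp18), against 7.69% and 7.52% of all genes. By edgeR 0.00684% of all genes changed with IFN-gamma in adherent and 0% in ULA Ifngr1-KO cells, where 1215 and 1103 genes had an unadjusted p under 0.05. DESeq2 called 26 and 1 genes in these comparisons and 0 of the 10 in both.

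**Figure D2:**
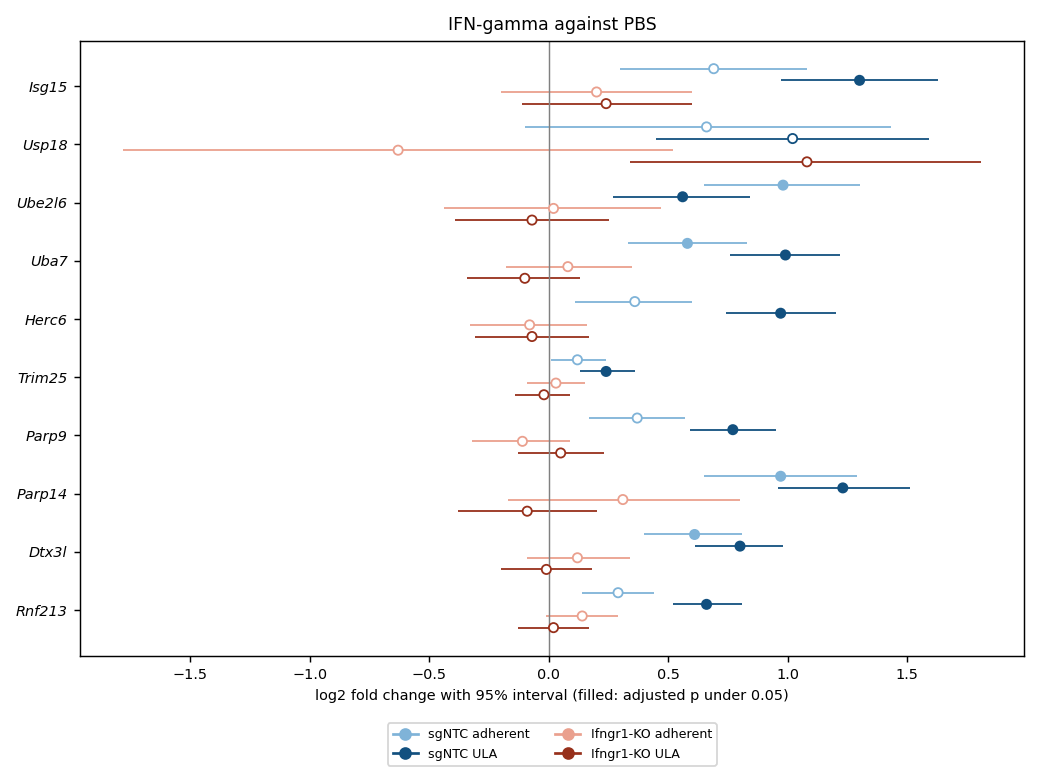
Log2 fold change of IFN-gamma against PBS for each gene, with its 95% interval, in the 4 combinations of line and culture. Filled points passed an adjusted p of 0.05. In sgNTC cells 4 points are filled in adherent and 9 in ULA culture, and no point is filled in Ifngr1-KO cells.

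Whether detached cells responded more strongly was tested as the difference between the responses of ULA and adherent sgNTC cells. By edgeR and by DESeq2 0 of the 10 passed, with 5 of the 10 at an unadjusted p under 0.05. Over all genes 0.0479% were larger in ULA (7 called by edgeR and 9 by DESeq2, and 781 at an unadjusted p under 0.05). The estimate was above 0 for 9 of 10 genes, from 0.12 ± 0.08 for Trim25 to 0.61 ± 0.25 for Isg15 and 0.61 ± 0.16 for Herc6 on the log2 scale. Ube2l6 was the exception (-0.42 ± 0.21, 95% interval -0.85 to 0.01). Without a filter on low counts Herc6 (adjusted p = 0.0359, against 0.687) and Rnf213 (0.00459, against 0.725) passed. The counts of 9 and 4 genes called in the cultures are thus not matched by a called difference in this test.

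Dependence on the receptor line was tested as the response of Ifngr1-KO minus that of sgNTC cells. In ULA culture the response was smaller in Ifngr1-KO cells for 7 of 10 genes, where 0.793% of all genes were lower in this difference. Parp14 differed most (-1.32 ± 0.20, adjusted p = 0.000256), followed by Uba7 (-1.09 ± 0.16, 0.000113), Isg15 (-1.06 ± 0.24, 0.0176) and Herc6 (-1.04 ± 0.16, 0.000285). Dtx3l (-0.81 ± 0.13, 0.000499), Parp9 (-0.72 ± 0.13, 0.00124) and Rnf213 (-0.65 ± 0.10, 0.000499) followed. Ube2l6 (-0.63 ± 0.21, 0.128), Trim25 (-0.27 ± 0.08, 0.08) and Usp18 (0.06 ± 0.45, 0.981) did not pass. Trim25 passed with library totals (0.0318) and by DESeq2 (0.0311), which called 8 of the 10, and Ube2l6 passed without a filter on low counts (0.0372). For Usp18 the changes in the lines were 1.02 and 1.08, and the 95% interval of their difference ran from -0.87 to 0.98.

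The Isg15 call in that difference was lost without Ifngr1-KO IFN-gamma replicate 1 (adjusted p = 0.0598), Ifngr1-KO PBS replicate 1 (0.06), sgNTC IFN-gamma replicate 3 (0.0682) or sgNTC PBS replicate 2 (0.0675), all of ULA culture. Trim25 passed (0.019) without the Ifngr1-KO ULA IFN-gamma replicate 2 library, which lay apart from its group, and the other 7 kept their calls without it. In adherent culture 0 of the 10 passed by edgeR and 1 by DESeq2, with 6 at an unadjusted p under 0.05, where 0.0957% of all genes were lower (1630 genes at an unadjusted p under 0.05). All 10 values were below 0 there, from -0.09 ± 0.08 for Trim25 to -1.29 ± 0.67 for Usp18. Ube2l6 (-0.96 ± 0.27, adjusted p = 0.154) passed by DESeq2 (0.0387) and without a filter on low counts (0.00927), as Parp9 did without a filter (0.0307).

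ULA culture without IFN-gamma went with higher levels of the whole set. Among PBS libraries all 10 genes were higher in ULA than in adherent culture in both lines, where 32.5% of all genes were higher in sgNTC and 29.6% in Ifngr1-KO cells. The median log2 fold change was 1.53 and 1.57, against 0.03 and 0.00 over all genes. In sgNTC cells the values ran from 0.32 ± 0.07 for Rnf213 (adjusted p = 0.000259) to 2.99 ± 0.34 for Usp18 (8.41e-09), with Ube2l6 at 2.37 ± 0.15 and Parp14 at 2.13 ± 0.15. These are larger than the changes IFN-gamma gave for 8 of the 10 genes in ULA culture, Herc6 and Rnf213 being the others. Counted by separation, all 10 genes had every ULA library above every adherent one in sgNTC PBS cells, as did 5265 of the 14622 genes tested. Another 5062 genes were separated the other way.

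In Ifngr1-KO cells, where the IFN-gamma receptor gene was edited, the change with detachment ran from 0.52 ± 0.12 for Herc6 to 3.59 ± 0.21 for Parp14 (adjusted p = 2.14e-16). For Parp14 the 3 adherent libraries held 36 to 60 counts and the 3 ULA libraries 510 to 568. Usp18 rose as well (1.48 ± 0.46, adjusted p = 0.00552), but its libraries overlapped. The PBS replicate 2 library of adherent Ifngr1-KO cells stood at 0.659 CPM of Usp18 beside 0.157 and 0.103 CPM in the others, and without it the rise was 2.78. That library was also the highest of its group for Ube2l6, at 1.93 CPM beside 0.861 and 1.13 CPM, and without it the Ube2l6 rise went from 2.40 to 2.83.

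Other RNA moved with culture too, and all marker sums given here are of PBS libraries, adherent before ULA. Summed macrophage and leukocyte markers went from 3.07 to 3.52 CPM in adherent to 6.77 to 7.34 CPM in ULA sgNTC PBS cells, and from 5.62 to 7.65 to 16.8 to 21.3 CPM in Ifngr1-KO PBS cells. Of the 6 markers Cd68 carried most of it, and the defining Ptprc reached at most 0.149 CPM in any library. The fibroblast markers summed to 44.2 to 54.8 and 96.3 to 99 CPM in sgNTC cells, and to 16.6 to 18.3 and 93.5 to 98.1 CPM in Ifngr1-KO cells, all but at most 0.507 CPM of it Dcn, with Lum and Thy1 at 0. The endothelial markers summed to 0.41 to 0.816 and 2.72 to 3.55 CPM in sgNTC cells and to 0.418 to 0.745 and 0.993 to 2.32 CPM in Ifngr1-KO cells, nearly all of it Pecam1. Lymphocyte markers reached at most 0.123 CPM and erythroid markers were at 0. The epithelial and mesothelial markers summed to 2033 to 2193 and 2793 to 2848 CPM in sgNTC cells and to 1727 to 2027 and 4110 to 4267 CPM in Ifngr1-KO cells. Between the lines, the leukocyte sums and the epithelial and mesothelial sums did not overlap in either culture, nor the fibroblast sums in adherent or the endothelial sums in ULA culture. The part of these markers in the levels of the 10 genes was not tested.

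The lines differed without IFN-gamma. In adherent PBS cells 8 of 10 genes were lower in Ifngr1-KO than in sgNTC cells, where 23.9% of all genes were lower. Parp14 differed most (-2.32 ± 0.21, adjusted p = 8.68e-11), then Ube2l6 (-1.86 ± 0.20, 1.35e-09) and Rnf213 (-1.56 ± 0.07, 1.6e-16), and Isg15 (-0.26 ± 0.20) and Herc6 (-0.04 ± 0.12) did not pass (adjusted p = 0.301 and 0.825). In ULA PBS cells 8 of 10 were lower again, where 25.6% of all genes were lower, but the 2 that did not pass were Uba7 (0.04 ± 0.11) and Parp9 (-0.18 ± 0.09). Usp18 (-2.91 ± 0.34, adjusted p = 3.02e-08), Ube2l6 (-1.83 ± 0.15) and Rnf213 (-1.31 ± 0.07) differed most there. The median of the 10 was -0.52 in both cultures, against -0.01 and -0.02 over all genes. The genes thus differed widely, from a level in Ifngr1-KO cells of 0.133 times that of sgNTC for Usp18 in ULA culture to 1.03 times for Uba7.

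Some of these line differences rested on single libraries or settings. Without the Ifngr1-KO adherent PBS replicate 3 library, which lay apart from its group, 6 of 10 genes were lower in adherent culture, and the change with detachment kept all 10 calls. In adherent cells the Usp18 difference (-1.40 ± 0.47, adjusted p = 0.0127) was lost without Ifngr1-KO PBS replicate 1 (0.0724), Ifngr1-KO PBS replicate 3 (0.078) or sgNTC PBS replicate 1 (0.0625) and with the compared groups alone (0.0579), and was -2.66 without Ifngr1-KO PBS replicate 2. The Trim25 difference (-0.17 ± 0.06, 0.0135) was lost without Ifngr1-KO PBS replicate 2 (0.0622) or 3 (0.0782), without sgNTC PBS replicate 1 (0.0629) or 3 (0.0596), with library totals (0.0629) and without a filter (0.068). In ULA cells the Dtx3l difference (-0.23 ± 0.09, 0.0438) was lost without any 1 of the 6 libraries (0.103 to 0.198), with median-ratio size factors (0.0576), without a filter (0.0783) and by DESeq2 (0.0772). That of Herc6 (-0.34 ± 0.12, 0.0145) was lost without Ifngr1-KO PBS replicate 1 (0.0884) or 3 (0.0842), or sgNTC PBS replicate 1 (0.0659) or 3 (0.117). Parp9 passed with library totals (0.041) and with only the compared groups (0.0358).

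**Figure D3:**
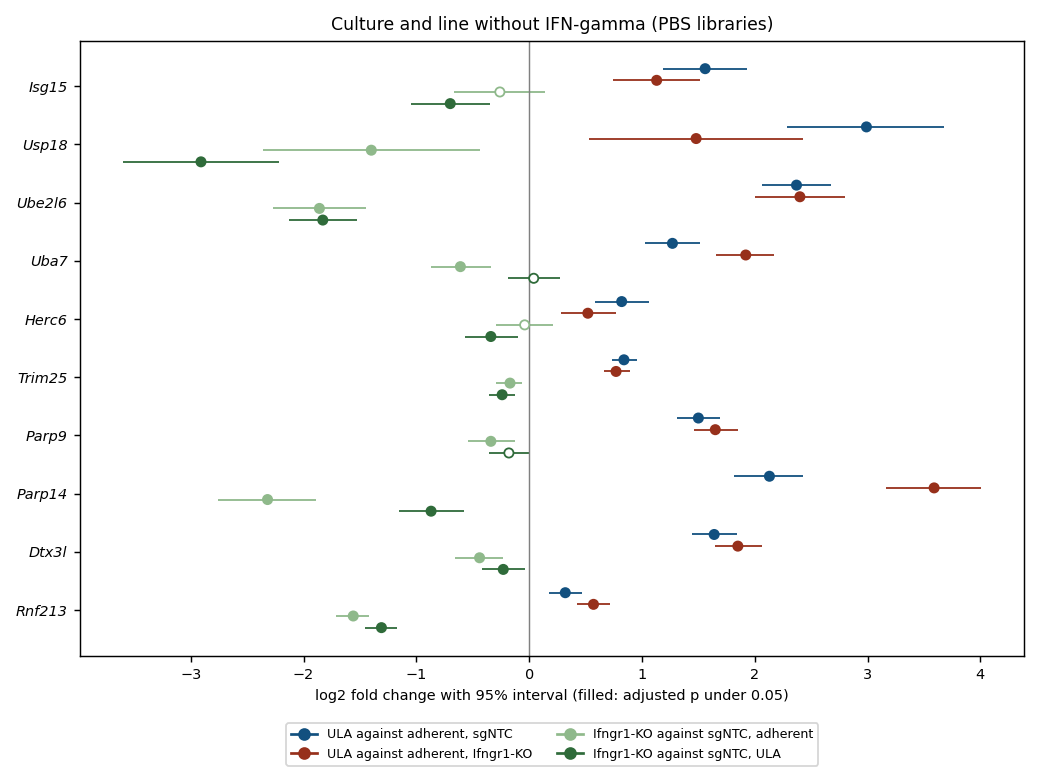
Log2 fold changes between PBS libraries with 95% intervals, for ULA against adherent culture in each line and for Ifngr1-KO against sgNTC cells in each culture. Filled points passed an adjusted p of 0.05. All 20 culture values are filled and above 0, and of the 20 line values 16 are filled and below 0.

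The effect of culture differed between the lines for 2 of the 10 genes, in a comparison chosen after the values were seen, where 27.8% of all genes differed. The set did not exceed that share. Parp14 rose more with detachment in Ifngr1-KO cells, by 1.46 ± 0.25 on the log2 scale (adjusted p = 4.03e-05), and Uba7 by 0.65 ± 0.17 (0.00449). Usp18 (-1.51 ± 0.58, 0.0554) and Rnf213 (0.25 ± 0.10, 0.0669) did not pass. Usp18 passed with library totals (0.0396), without a filter (0.00388) and by DESeq2 (0.0206), and Rnf213 without a filter (0.0074), with the compared groups alone (0.0451) and by DESeq2 (0.0483). Usp18 also passed without Ifngr1-KO adherent PBS replicate 1 (0.027) or 3 (0.0108) or Ifngr1-KO ULA PBS replicate 3 (0.0313), but was -0.22 without Ifngr1-KO adherent PBS replicate 2. Rnf213 also passed without Ifngr1-KO adherent PBS replicate 1 (0.0288) or 2 (0.0415), sgNTC adherent PBS replicate 2 (0.0186), Ifngr1-KO ULA PBS replicate 2 (0.0162) or sgNTC ULA PBS replicate 1 (0.0228). With library totals as scale the genes that differed split into 1706 higher and 2356 lower, against 2426 and 1642 with TMM factors.

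Scaled by exon length, as CPM per kb, the 10 genes can be ordered by level. In all 4 sgNTC groups Rnf213 was first (26.6 to 52.8 CPM per kb as group means) and Trim25 next (13.7 to 29 CPM per kb), with no overlap between them. In all 4 Ifngr1-KO groups the order of this pair was the other way round, with Trim25 at 12.1 to 20.7 and Rnf213 at 9.01 to 13.6 CPM per kb and again no overlap. Below them in sgNTC adherent PBS cells came Parp9 (3.27) and Isg15 (3.01), which overlapped, then Ube2l6 (2.41) and Dtx3l (2.31), which overlapped, Uba7 (1.37) and Herc6 (1.29), which overlapped, Parp14 (0.622) and Usp18 (0.298).

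The lower ranks were reordered across groups. Isg15 came next after this pair in sgNTC ULA cells with IFN-gamma, at 21.9 CPM per kb, overlapping Ube2l6 at 18.3, which in turn overlapped Parp9 at 15.7. Usp18 was last in adherent sgNTC cells and next to last in ULA sgNTC cells, at 2.41 with PBS and 4.86 CPM per kb with IFN-gamma, overlapping Herc6 below it. In all 4 Ifngr1-KO groups Usp18 was last, at 0.0734 to 0.677 CPM per kb, and in adherent culture it overlapped Parp14 at 0.124 and 0.153.

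**Figure D4:**
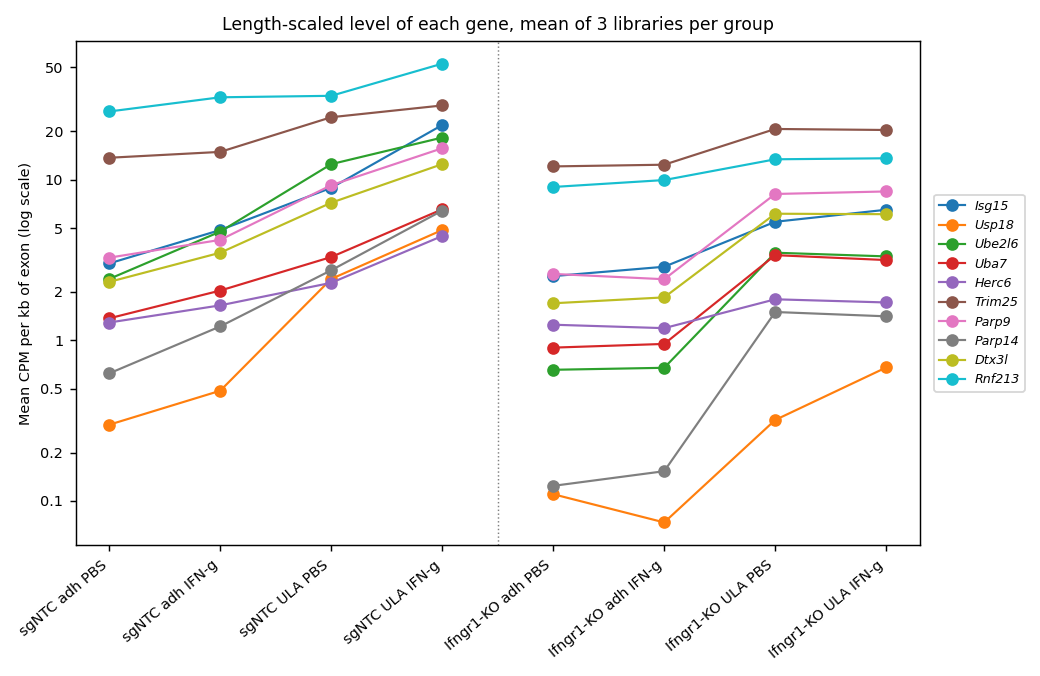
Mean level of each gene in each group in CPM per kb of exon, on a log axis, with sgNTC groups left and Ifngr1-KO groups right of the dotted line (adh is adherent, IFN-g is IFN-gamma). Lines only join the points of 1 gene. Rnf213 leads in sgNTC and Trim25 in Ifngr1-KO groups, and Usp18 and Parp14 span the widest ranges.

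Partners kept their proportions to different degrees. The length-scaled level of Parp9 was 1.07 to 1.69 times that of its partner Dtx3l in every library, with group medians of 1.23 to 1.66. Parp14 over Parp9 was far less steady, with a median of 0.199 in sgNTC adherent PBS cells, 0.412 in sgNTC ULA cells with IFN-gamma, 0.0456 in Ifngr1-KO adherent PBS cells and 0.199 in Ifngr1-KO ULA PBS cells. Within the ISG15 pathway Ube2l6 over Uba7 went from a median of 1.76 in sgNTC adherent PBS to 3.99 in sgNTC ULA PBS libraries, and stood at 0.563 and 0.995 in the same groups of Ifngr1-KO cells. Usp18 over Isg15, the remover over the modifier, had medians of 0.11 and 0.274 in sgNTC and 0.0203 and 0.0571 in Ifngr1-KO PBS cells, adherent and ULA. These ratios are given as descriptions, without a test.

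**Figure D5:**
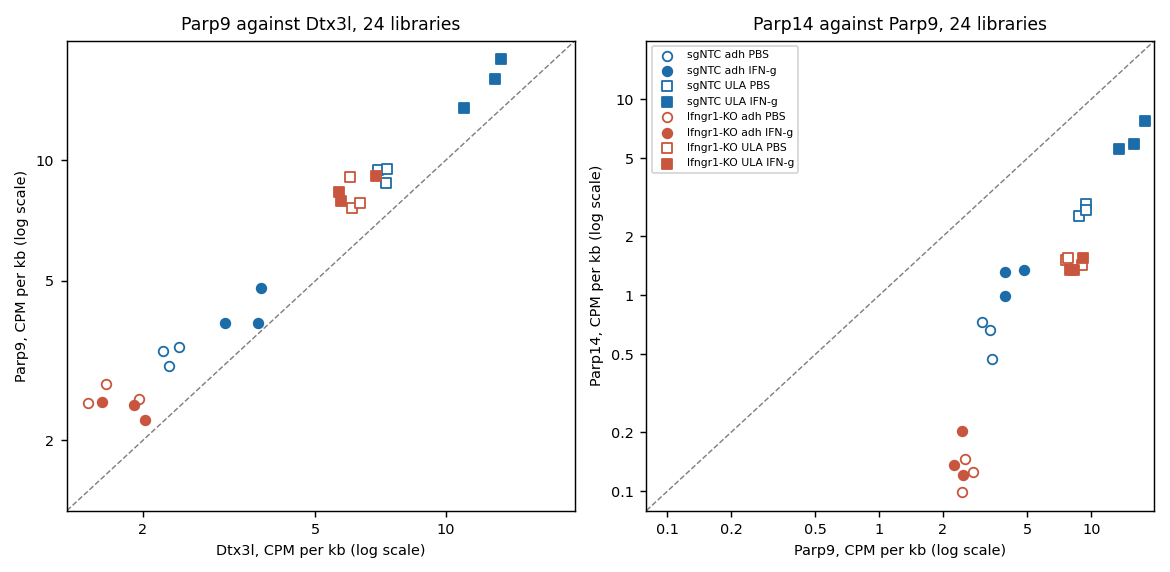
Length-scaled levels of Parp9 against Dtx3l (left) and Parp14 against Parp9 (right) in the 24 libraries, on log axes in CPM per kb, with the dashed line marking equal levels (blue sgNTC, red Ifngr1-KO, circles adherent, squares ULA, open PBS, filled IFN-gamma). Points for Parp9 and Dtx3l run along the line just above it, at ratios of 1.07 to 1.69, and Parp14 lies under Parp9 in every library, furthest in adherent Ifngr1-KO cells.

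Across the 24 libraries each gene followed the mean of the other 9, in z-scored log2 CPM, with Pearson r from 0.92 (Herc6) to 0.97 (Parp14), and 0.74 for Rnf213. The libraries share the same 8 groups, so these values describe the group pattern and carry no p. The genes outside the set most like its mean were Oasl2 (r = 0.992), an antiviral relative of the oligoadenylate synthetases, Mpeg1 (0.984), a pore-forming protein known from macrophages, and Apol9a (0.981) and Apol9b (0.980), near-identical copies whose counts are uncertain. Serpinb9 (0.977), an inhibitor of granzyme B, and Xaf1 (0.977) followed. Oasl2 had group means of 6.24, 11.4, 46.8 and 116 CPM in sgNTC cells (adherent PBS, adherent IFN-gamma, ULA PBS, ULA IFN-gamma) and 1.98, 2.1, 20.2 and 20.2 CPM in Ifngr1-KO cells.

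Relatives of the ISG15 enzymes that serve ubiquitin and other modifiers were not called with IFN-gamma. Of 16 such genes, among them the ubiquitin-activating Uba1 and the UBE2L6 relative Ube2l3, edgeR called 0 in either culture of sgNTC cells, with 3 and 2 at an unadjusted p under 0.05 and 1 (Uba3) and 0 called by DESeq2 in adherent and ULA cells. Their median log2 fold changes were 0.00 and 0.01. With detachment in sgNTC PBS cells 2 of the 16 rose and 9 fell, with a median of -0.14, and in Ifngr1-KO cells 3 rose and 8 fell. Over all genes 32.1% fell with detachment in sgNTC and 31.1% in Ifngr1-KO cells. Of 14 other PARP genes 1 rose with IFN-gamma in adherent cells, Parp12 (0.51 ± 0.07, adjusted p = 0.000106), whose product adds single ADP-ribose units. In ULA cells 3 rose, Parp12 (0.66 ± 0.07, 1.13e-07), Parp10 (0.37 ± 0.08, 0.00419) and Parp11 (0.32 ± 0.08, 0.0378). Of all genes, 0.294% rose in adherent and 1.31% in ULA sgNTC cells with IFN-gamma. By edgeR 0 of 6 ADP-ribose hydrolases and 0 of 4 other Deltex ligases passed in either culture. In ULA cells 1 of each had an unadjusted p under 0.05 and DESeq2 called 1 hydrolase, Macrod1, lower, and in adherent cells both counts were 0.

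Other interferon genes were counted as well. With IFN-gamma 0.294% of all genes rose in adherent and 1.31% in ULA sgNTC cells. Of 10 other TRIM genes named in antiviral work 0 passed in adherent cells by edgeR (5 at an unadjusted p under 0.05, and by DESeq2 1, Trim21) and 5 rose in ULA sgNTC cells, such as the antibody receptor Trim21 (0.73 ± 0.14, adjusted p = 0.00127), Trim56 (0.31 ± 0.06, 0.00413) and Trim12a (0.61 ± 0.13, 0.00601), a gene with close copies whose count is uncertain. Of 18 other antiviral genes 6 rose in adherent cells, led by the RNA sensor Ifih1 (0.70 ± 0.09, 3e-05), Xaf1 (1.28 ± 0.20, 0.000333) and the tether of virus particles Bst2 (1.58 ± 0.25, 0.00189). In ULA cells 10 of the 18 rose, led by the RNA sensor Ddx58 (0.72 ± 0.08, 4.7e-07), Xaf1 (1.33 ± 0.16, 7.31e-07) and Ifit2 (1.29 ± 0.16, 1.75e-06). In PBS 18 of the 18 were higher in ULA than in adherent sgNTC cells and 15 in Ifngr1-KO cells, where 32.5% and 29.6% of all genes were. The median log2 fold changes of the 18 were 2.14 and 2.21. In Ifngr1-KO against sgNTC PBS cells 11 of the 18 were lower in adherent and 16 in ULA culture. Of all genes, 23.9% and 25.6% were lower in these comparisons.

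Of 6 transcription factors through which interferon acts, 3 rose with IFN-gamma in adherent sgNTC cells, where 0.294% of all genes rose. Among them were Irf9 (0.78 ± 0.11, adjusted p = 9.05e-05) and Irf1 (0.65 ± 0.09, 0.000246). In ULA cells 5 of the 6 rose, where 1.31% of all genes rose, among them Irf1 (1.44 ± 0.09, 6.21e-11), Stat2 (1.30 ± 0.10, 7.41e-10) and Irf9 (1.05 ± 0.10, 2.97e-08). The response was larger in ULA than in adherent sgNTC cells for 3 of the 6, among them Stat2 (0.89 ± 0.14, 0.00753) and Irf1 (0.79 ± 0.13, 0.00753). It was also larger for 1 of the 18 antiviral genes, Ifit2 (1.26 ± 0.24, 0.0249), in the test that called 0 of the 10 genes above and 0.0479% of all genes. In ULA culture the response was smaller in Ifngr1-KO than in sgNTC cells for 5 of the 6 factors (median -1.27). The same held for 6 of the 18 antiviral genes (median -0.81), where 0.793% of all genes were lower in this difference. In Ifngr1-KO cells 0 members of any of these lists were called with IFN-gamma by edgeR or DESeq2, and 0 to 2 per list had an unadjusted p under 0.05.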

How the data were processed

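The deposited files hold raw counts per gene, 1 table per library, which the authors made with Trimmomatic, HISAT2, SAMtools and featureCounts (Subread 2.1.1) on GRCm38 (mm10), per the submitters' processing notes. No other version is given in these sources. Per the file headers, featureCounts ran in paired mode without strand and without counting pairs as 1, so both mates add to a count, and a read over 2 genes was by default not assigned. Symbols were matched by Ensembl identifier.

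One edgeR 4.0.16 quasi-likelihood model (R 4.3.3, robust, TMM factors 0.958 to 1.054, no covariate) covered all 24 libraries, each group having its own mean, on the 14622 genes that passed filterByExpr at a minimum count of 10. Tests were two-sided, with Benjamini-Hochberg adjustment inside each comparison. CPM uses TMM-adjusted totals, and CPM per kb divides by the exon length in the files. A share of genes called or separated counts all 14622 genes. The script was tested on simulated data. Alternatives were median-ratio size factors, library totals, no filter, the replicate number as a block, halved counts, the compared groups alone, DESeq2 1.42.0 and leaving out each library.

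The 10 genes and all lists were chosen with earlier results of these data known. The rule named all 10 genes in each comparison, from each list the called genes of lowest adjusted p, 3 at most, in each sgNTC comparison of IFN-gamma with PBS, the 6 genes most correlated with the mean of the 10 (predicted genes left out), and Ifngr1. Genes called by DESeq2 alone, genes larger in the ULA response, and Uba1 and Ube2l3 as names were added outside the rule after values were seen. Some results the rule selects are left out. Promoters came from RefSeq (GRCm38.p6).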

Additional observations from a re-analysis of the deposited data

Results flagged for a closer look

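The response to IFN-gamma differed between the lines in ULA culture for 7 of the 10 genes, tested as the response of Ifngr1-KO minus that of sgNTC cells. These 7 were lower in this difference, as were 0.793% of all genes. On the log2 scale the difference was -1.06 ± 0.24 for Isg15 (adjusted p = 0.0176), -1.09 ± 0.16 for Uba7 (0.000113), -1.04 ± 0.16 for Herc6 (0.000285), -0.72 ± 0.13 for Parp9 (0.00124), -1.32 ± 0.20 for Parp14 (0.000256), -0.81 ± 0.13 for Dtx3l (0.000499) and -0.65 ± 0.10 for Rnf213 (0.000499). The Isg15 call was lost without any 1 of 4 of the 12 ULA libraries. The effect of ULA culture without IFN-gamma differed between the lines for Uba7 (0.65 ± 0.17, 0.00449) and Parp14 (1.46 ± 0.25, 4.03e-05), higher in Ifngr1-KO cells. These are 2 of the 10 genes, no more than the 27.8% of all genes that differed. The second comparison was chosen after the values were seen.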

How the results depend on the processing

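Of 1799 recomputed log2 fold changes of the 10 genes, 1697 stayed on their side of the threshold with their direction. A call was lost in 40 and gained in 36, and 26 values that were not called changed sign. No called value changed direction. Without a filter on low counts 7 in place of 4 genes of the set were called with IFN-gamma in adherent sgNTC cells, 1 in place of 0 in ULA Ifngr1-KO cells, 2 in place of 0 for the response in ULA minus adherent sgNTC cells, 2 in place of 0 for the response in Ifngr1-KO minus sgNTC adherent cells, and 4 in place of 2 for the ULA effect in Ifngr1-KO minus sgNTC cells. DESeq2 called 1 and 4 of the set in the last 2 of these. Leaving out 1 library gave 2 to 4 in the last one. With the replicate block the counts of the set were 4, 9, 0, 0, 10, 10, 8, 8, 0, 0, 7 and 2, the same as without it. Libraries with the same number did not deviate together (correlations from -0.06 to 0.05), so no shift shared by number was seen. This cannot tell whether such libraries were handled together.

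Over all genes, counts that moved by more than 1.5 times are given as higher and lower. IFN-gamma in adherent sgNTC cells moved 43 and 3, but 141 and 34 without a filter, 93 and 8 with the compared groups alone and 72 and 11 by DESeq2. In ULA sgNTC cells it moved 192 and 108, but 238 and 414 without a filter and 258 and 235 by DESeq2. In adherent Ifngr1-KO cells 1 and 0 became 23 and 8 without a filter, 0 and 0 with the compared groups and 22 and 4 by DESeq2, and in ULA Ifngr1-KO cells 0 and 0 became 4 and 29, 0 and 1, and 1 and 0. The response in ULA minus adherent sgNTC cells had 7 and 0, but 25 and 38 without a filter and 1 and 0 with the compared groups. The response in Ifngr1-KO minus sgNTC cells had 5 and 14 in adherent culture, but 62 and 118 without a filter, 5 and 5 with counts halved and 61 and 85 by DESeq2. In ULA culture it had 79 and 116, but 304 and 220 without a filter and 239 and 259 by DESeq2. With library totals the count for this difference stayed within 1.5 times, at 206 against 195, but split into 55 and 151. Leaving out 1 library gave 25 to 40 genes, against 46, with IFN-gamma in adherent sgNTC cells, and 127 to 346, against 300, in ULA sgNTC cells. It gave 0 to 3, against 1, in adherent and 0 to 5, against 0, in ULA Ifngr1-KO cells. It gave 1 to 7, against 7, for the response in ULA minus adherent sgNTC cells. For the response in Ifngr1-KO minus sgNTC cells it gave 2 to 22, against 19, in adherent and 75 to 280, against 195, in ULA culture. The cause was not tested. Usp18 in adherent Ifngr1-KO cells rests on 3 to 29 counts per library, which limits its precision.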
